A study of Homo sapiens with 4 samples.

Results

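The genes described here are 10 members of bone morphogenetic protein (BMP) and activin signalling: ID1, ID2, ID3, ID4, BMP2, BMP4, SMAD1, SMAD6, INHBA and FST. They were chosen by name, as the ID family together with BMP or activin ligands and feedback genes, with earlier results of these data known. All 10 were found among the 60544 genes of the count table. The RNA came from PC3, a human prostate cancer line, in 2 libraries of control cells labelled shNC and 2 libraries labelled sh812. The series compares METTL3 knockdown with control, and sh812 was taken as the knockdown because it is the other label. The labels name 1 cell line, 1 hairpin per arm and no separate cultures, so the p-values measure the spread between these libraries, which may be technical. METTL3 encodes the methyltransferase that places N6-methyladenosine (m6A) on messenger RNA.

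BMP ligands bind paired receptor kinases that phosphorylate SMAD1 and its close relatives, which enter the nucleus with SMAD4 and switch on target genes. Activins, made of INHBA or INHBB subunits, use related receptors that act through SMAD2 and SMAD3, and follistatin, the product of FST, binds activins outside the cell and blocks them. The ID genes are classic BMP targets. Their proteins have a helix-loop-helix domain without a DNA-binding region, pair with E proteins and keep these off DNA. SMAD6 is also induced by BMP signals and inhibits the receptors in a feedback loop.

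Total counts ranged from 31450648 to 37041330 per library. METTL3 had 1682 and 1379 counts in shNC and 269 and 313 counts in sh812, a log2 fold change of -2.42 (SE 0.11), which goes with the labels (388 of its exon bases are shared with TOX4 on the other strand). PC3 markers were abundant, with 5269 to 6940 counts of KRT18 and 18586 to 21972 counts of VIM, and the androgen-driven genes KLK2 and KLK3 were at 0 in all 4 libraries. Of 9 markers of leukocytes, endothelium and fibroblasts, 6 had at most 44 counts in any library. The exceptions were PECAM1 (748 to 1379 counts), COL1A1 (1029 to 1426) and COL1A2 (302 to 480). PECAM1 and COL1A2 were higher in sh812, by 0.59 and 0.50 on the log2 scale (edgeR adjusted p = 0.000222 and 0.0116), as were 3 of the 5 epithelial markers, and the part of these in the results was not tested. In bulk RNA, a change in the share of cells with a transcript and a change in its level per cell cannot be told apart.

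Of the 10 genes, 9 passed the filter on low counts, and 3 of these 9 were called at an adjusted p under 0.05: ID1 was higher in sh812, and ID2 and INHBA were lower. Over all 16802 genes tested, 10.8% were called, 5.43% higher and 5.42% lower. The fitted change was negative in 8 of the 9 genes, and in 51.0% of all tested genes. The median log2 fold change of the 9 was -0.14 against -0.0056 for all tested genes. These changes were small, from a fall of ID2 to 73.4% of the control level to a rise of ID1 to 116.3%. Both sh812 libraries lay on one side of both shNC libraries in 7 of the 9 genes, an arrangement found in 53.6% of all tested genes. With library size alone as scaling, 561 genes were called higher and 1328 lower in place of 912 and 910, and among the 10 genes 1 was higher and 3 were lower.

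**Figure D1:**
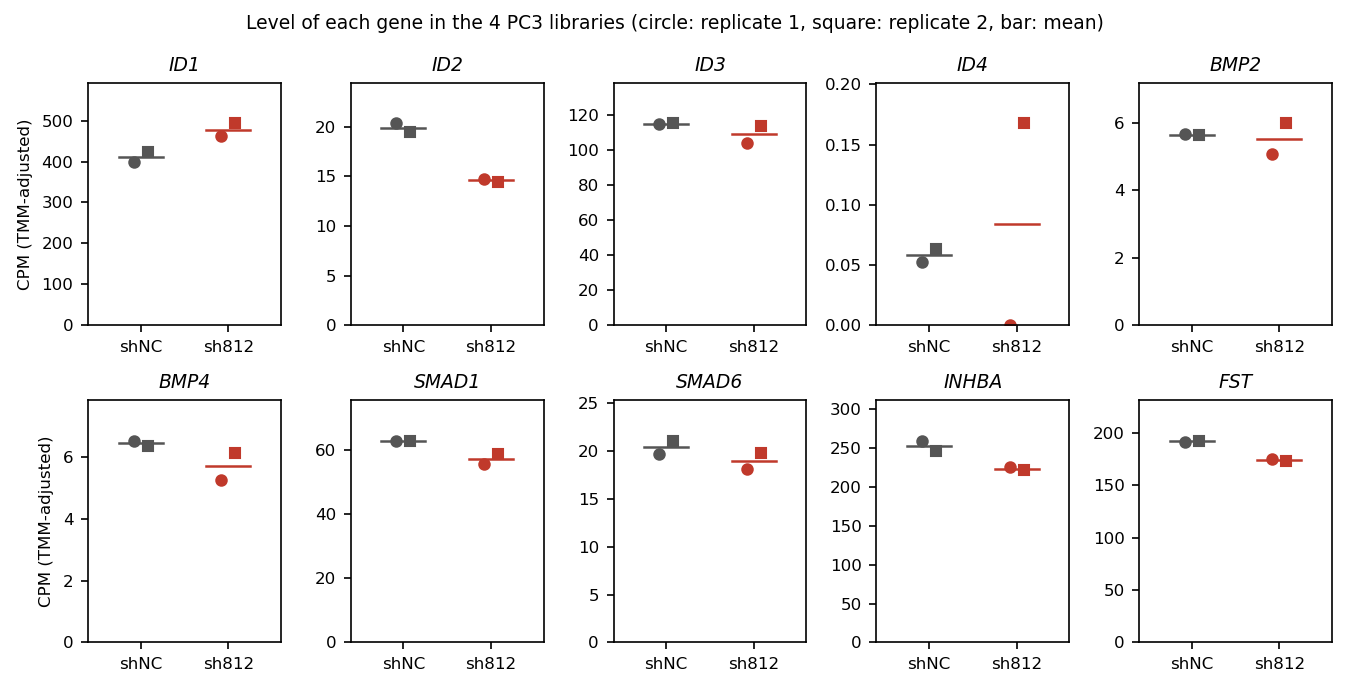
Level of each gene in CPM (read counts on the library size after TMM adjustment) in the 4 PC3 libraries, on linear axes from 0, with circles for replicate 1, squares for replicate 2 and bars for the mean of 2 libraries. ID2, ID3, BMP4, SMAD1, INHBA and FST were lower in both sh812 libraries than in both shNC libraries, and ID1 was higher. The groups of BMP2 and SMAD6 overlapped. Groups without overlap were found in 53.6% of all tested genes. ID4 stayed under 0.2 CPM.

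ID1 was the most abundant ID transcript and rose after the knockdown. The exons of its transcripts join into 1 block of 1233 bases in GENCODE 29 (GRCh38), on the plus strand of chromosome 20 from 31605283 to 31606515, with no other gene annotated over it. It had 398 and 424 CPM in the shNC libraries and 463 and 493 CPM in the sh812 libraries, with CPM taken on the TMM-adjusted library size. Both sh812 values lay above both control values. The group means were 411 ± 18.6 and 478 ± 21.4 CPM (SD, n = 2), and the log2 fold change was 0.22 (SE 0.06, 95% interval 0.10 to 0.34, edgeR adjusted p = 0.0172).

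The ID1 call did not hold when each library's trend on transcript length was removed, which left a log2 fold change of 0.09 (edgeR adjusted p = 0.332). ID1 is a short transcript, and across 12257 genes the change had a Spearman correlation of -0.30 with joined exon length. The same correlation of -0.30 separated shNC replicate 2 from shNC replicate 1, and that between the sh812 replicates was 0.03. Genes are not independent replicates, so these values describe the libraries. Without sh812 replicate 1 the ID1 value was 0.26 (edgeR adjusted p = 0.0962), and without sh812 replicate 2 it was 0.17 (edgeR adjusted p = 0.355).

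ID2 moved the other way and had the largest change of the 9 tested genes. It lies on the plus strand of chromosome 2, from 8678845 to 8684453, and 38 of its 2205 exon bases are shared with the antisense gene ID2-AS1, whose reads could enter the count if strand was ignored. Its level was 20.4 and 19.4 CPM in shNC and 14.8 and 14.4 CPM in sh812, from 772, 615, 519 and 516 counts. The groups were well apart relative to the distance between replicates, with means of 19.9 ± 0.64 and 14.6 ± 0.26 CPM (SD, n = 2). The log2 fold change was -0.45 (SE 0.11, 95% interval -0.67 to -0.22, edgeR adjusted p = 0.00971). With the length trend removed it was -0.53 (edgeR adjusted p = 0.0024). The direction was kept without either sh812 library, at -0.46 without replicate 1 and -0.43 without replicate 2, but the adjusted p in edgeR was then 0.0744 and 0.0991.

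ID3, at 23557918 to 23559794 on chromosome 1 (minus strand), was the second ID gene in abundance and was not called. It had 115.1 and 115.4 CPM in shNC and 104 and 114 CPM in sh812. The first sh812 library was lower than the controls and the second lay close to them. The log2 fold change was -0.08 (SE 0.07, edgeR adjusted p = 0.498), with a 95% interval from -0.21 to 0.06, so a small fall is within the precision of these libraries. With the length trend removed the value was -0.19 (edgeR adjusted p = 0.0641).

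ID4, on chromosome 6, was barely detected. It had 2 and 2 counts in shNC and 0 and 6 counts in sh812, and it did not pass the filter. A floor of 3 counts per library corresponds to 0.0791 to 0.0949 CPM here, and only sh812 replicate 2 was above it. No fold change is given for it.

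Per unit of length, ID1 made up most of the ID family in every library. Levels per length are given in TPM, the count per kilobase of joined exons scaled to the same sum in every library. This scaling is not that of CPM, so the size of a group difference depends on the unit. From shNC to sh812 the ID3 means were 115 and 109 CPM but 254 and 225 TPM. Those of ID1 were 411 and 478 CPM but 1320 and 1437 TPM. ID1 had 1301 and 1340 TPM in shNC and 1388 and 1486 TPM in sh812. ID3 had 258 and 250 TPM in shNC and 214 and 235 TPM in sh812, and ID2 had 37.2 and 34.3 TPM in shNC and 24.8 and 24.3 TPM in sh812. Hence the share of ID1 in the summed ID level was 81.5% and 82.5% in shNC and 85.3% and 85.1% in sh812. The ID1 to ID2 ratio was 35.0 and 39.0 in the control libraries and 56.0 and 61.2 in the knockdown libraries. These ratios could not overlap between groups, because ID1 was higher and ID2 lower in both sh812 libraries, so they add nothing to the values of the 2 genes. With 2 libraries against 2 an exact two-sided permutation test cannot give a p under 0.33. The summed ID level was 1597 and 1624 TPM in shNC and 1627 and 1746 TPM in sh812.

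**Figure D2:**
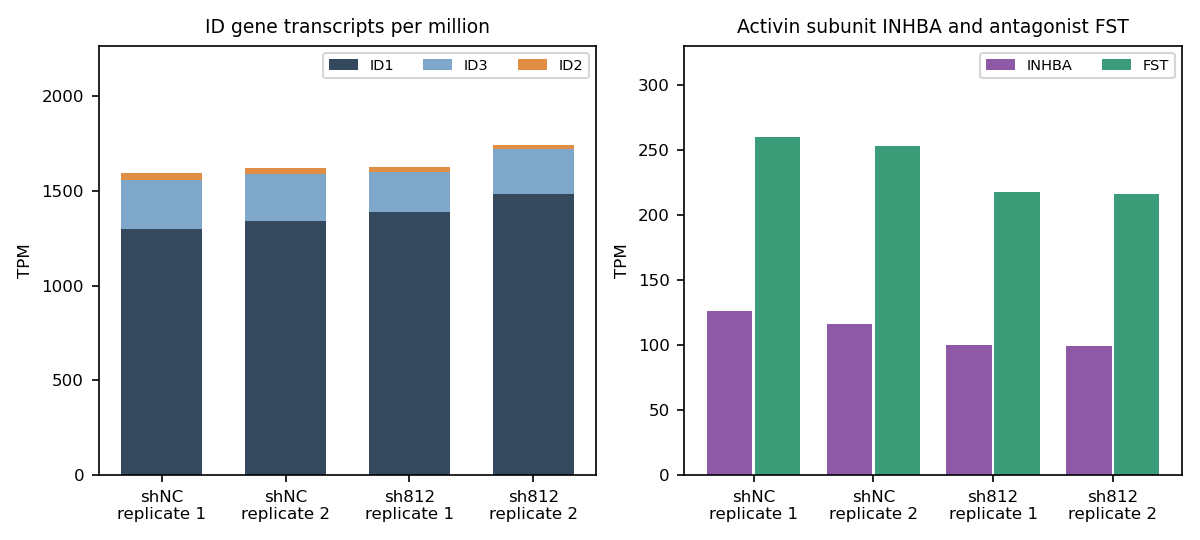
TPM of ID1, ID3 and ID2 stacked for each library (left) and of INHBA and FST side by side (right), on linear axes from 0. The ID sum was 1597 to 1746 TPM and was mostly ID1, and FST stood 2.06 to 2.19 times as high as INHBA.

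The sequences just upstream of the start sites of ID1 and ID2 are shown because their fitted changes had opposite directions. The ID1 call did not hold with the length trend removed (log2 fold change 0.09). RefSeq (GRCh38.p14) held promoters for 9 of the 10 genes, all but BMP2. The 250 bases before the RefSeq start are given 5′ to 3′, for ID1 at chr20:31605039-31605288 and for ID2 at chr2:8681806-8682055, both on the plus strand. Capitals mark matches on either strand to GGAGCC and GGCGCC, 2 GC-rich sequences that SMAD proteins can bind, to the SMAD box GTCTAGAC, and to the TATA sequence TATAAA.
ID1: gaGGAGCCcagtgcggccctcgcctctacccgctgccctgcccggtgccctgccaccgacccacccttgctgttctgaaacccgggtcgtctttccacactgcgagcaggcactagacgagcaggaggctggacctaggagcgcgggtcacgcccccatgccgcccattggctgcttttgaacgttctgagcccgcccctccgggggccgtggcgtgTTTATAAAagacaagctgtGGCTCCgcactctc
ID2: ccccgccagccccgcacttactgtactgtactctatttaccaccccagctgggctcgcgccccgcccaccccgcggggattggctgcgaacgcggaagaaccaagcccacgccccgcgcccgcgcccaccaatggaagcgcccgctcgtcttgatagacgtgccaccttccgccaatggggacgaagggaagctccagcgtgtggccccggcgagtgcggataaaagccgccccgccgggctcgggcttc
The ID1 window holds 2 matches to GGAGCC, and 2 matches to TATAAA that overlap each other, 1 on each strand. The ID2 window holds none of the 4 marked sequences. The shorter GTCT, with which the SMAD box begins, was not marked. It had 3 matches in the ID1 window, 2 in the ID2 window and at least 1 in each of the 9, and 77.6% of all promoters hold it. Among 27305 promoters of the same length, 30.0% hold GGAGCC, 11.1% hold TATAAA, 16.1% hold GGCGCC and 0.176% hold GTCTAGAC. GC content was 66.0% in the ID1 window and 69.2% in the ID2 window, against a median of 58.0% over all promoters. GGAGCC also had 1 match each in the windows of ID3 and FST and 3 in that of SMAD6, genes with negative fitted changes. It had 0 matches in those of BMP4, SMAD1 and INHBA, whose fitted changes were negative as well. A match is a description of the letters, and BMP-responsive elements can lie outside such windows. Any part of these sequences in the changes was not tested.

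BMP2 and BMP4, the BMP ligands of the set, were low in PC3 and neither was called. BMP2, on chromosome 20, had 5.67 and 5.63 CPM in shNC and 5.07 and 5.98 CPM in sh812, so the groups overlapped. Its log2 fold change was -0.03 with a 95% interval from -0.39 to 0.33 (edgeR adjusted p = 0.941), and the value was 0.08 without sh812 replicate 1. For BMP4, on chromosome 14, the values were 6.54 and 6.36 CPM in shNC and 5.27 and 6.15 CPM in sh812. Both sh812 values were lower than the controls, the second only slightly. The log2 fold change of BMP4 was -0.18 with a 95% interval from -0.52 to 0.17 (edgeR adjusted p = 0.575). With 178 to 248 counts per library and 2 libraries per group, the intervals of these 2 ligands were wide, and changes within them are not excluded.

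The BMP signal transducer SMAD1 and the inhibitory SMAD6 were not called either. SMAD1, on chromosome 4, had 63.01 and 62.99 CPM in shNC and 55.7 and 58.8 CPM in sh812, with a log2 fold change of -0.14 (SE 0.07, 95% interval -0.29 to 0.01, edgeR adjusted p = 0.246). Both sh812 libraries were below the controls. The antisense gene SMAD1-AS1 shares 376 of the 6058 exon bases of SMAD1. SMAD6, on chromosome 15, had 19.7 and 21.1 CPM in shNC and 18.1 and 19.8 CPM in sh812, with a log2 fold change of -0.10 (SE 0.11, 95% interval -0.32 to 0.12, edgeR adjusted p = 0.612). The SMAD6 groups overlapped.

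The SMAD6 promoter is shown because it was the only one of the 9 with the full SMAD box GTCTAGAC, which 0.176% of all promoters hold, and because the gene is a feedback target of the pathway. The window lies at chr15:66701986-66702235 on the plus strand, with the same marks as above.
SMAD6: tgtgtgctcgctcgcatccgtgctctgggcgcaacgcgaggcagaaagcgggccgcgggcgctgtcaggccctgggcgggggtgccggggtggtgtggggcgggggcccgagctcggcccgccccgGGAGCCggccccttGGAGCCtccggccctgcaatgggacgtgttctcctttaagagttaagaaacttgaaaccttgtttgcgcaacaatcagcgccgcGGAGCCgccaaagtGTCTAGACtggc
It also holds 3 matches to GGAGCC, against 2 in ID1 and 2 in ID4. GGCGCC was matched only in the BMP4 window among the 9.

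INHBA, which encodes the activin beta A subunit, was the second gene called lower. Its gene spans 41667168 to 41705834 on chromosome 7 (minus strand) and has 8302 joined exon bases. Its level was 259 and 247 CPM in shNC and 225 and 221 CPM in sh812. Both sh812 values were lower, and the means were 253 ± 9.0 and 223 ± 2.96 CPM (SD, n = 2). The log2 fold change was -0.18 (SE 0.06, 95% interval -0.30 to -0.06, edgeR adjusted p = 0.0475). This call lay close to the threshold and was lost with RLE size factors (-0.18, edgeR adjusted p = 0.0578) and with the length trend removed (-0.12, edgeR adjusted p = 0.155). It was also lost without shNC replicate 1 (-0.14, edgeR adjusted p = 0.0588), sh812 replicate 1 (-0.19, 0.316) or sh812 replicate 2 (-0.17, 0.385).

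FST, which encodes the activin antagonist follistatin, was lower by a similar amount and was not called. It lies on the plus strand of chromosome 5 from 53480409 to 53487134, with no other gene over it. It had 191 and 193 CPM in shNC and 175 and 173 CPM in sh812. The replicates lay close together and the groups were apart. The log2 fold change was -0.14 (SE 0.06, 95% interval -0.26 to -0.02, unadjusted p = 0.0225, edgeR adjusted p = 0.123). FST passed the threshold with the length trend removed (-0.20, edgeR adjusted p = 0.0183) and with library size alone (-0.19, edgeR adjusted p = 0.0355).

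The balance of this ligand and its antagonist hardly moved before any removal of length trends. The INHBA to FST ratio in TPM was 0.485 and 0.458 in shNC and 0.461 and 0.457 in sh812, so the second control library lay between the knockdown libraries. The mean ratio in sh812 was 0.974 of that in shNC, and from 0.948 to 1.003 of it with 1 library left out. In the main fit the fall was slightly larger for INHBA than for FST (log2 fold changes of -0.18 and -0.14). With the length trend removed it was larger for FST (-0.12 and -0.20), so the direction of this small shift depended on the setting. The other activin subunit, INHBB, is not part of this ratio.

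**Figure D3:**
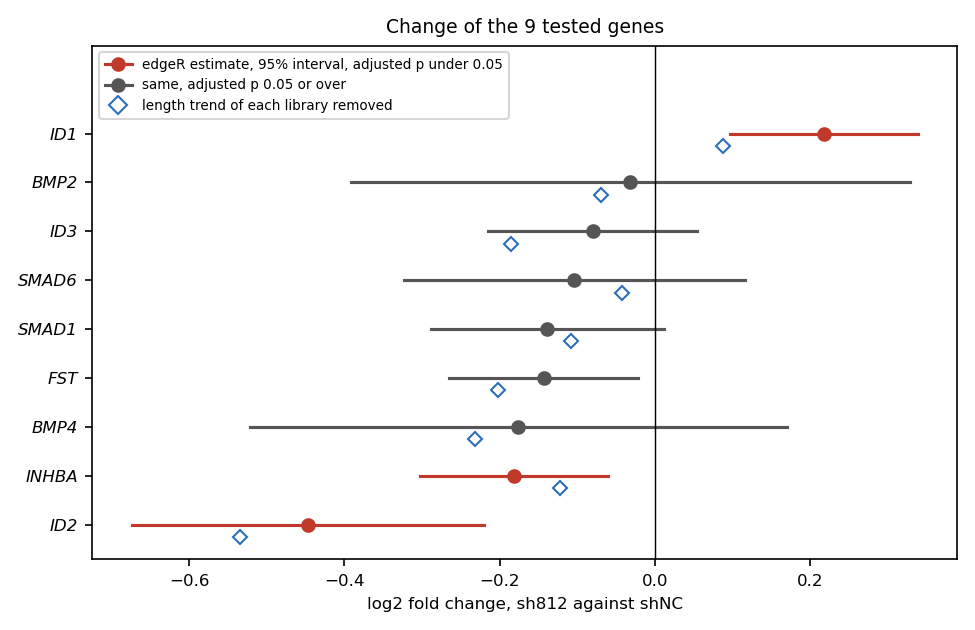
Log2 fold change of sh812 against shNC for the 9 tested genes, with the 95% interval from edgeR's quasi-likelihood test, and diamonds for the value with each library's length trend removed. ID1 moved from 0.22 to 0.09 with that removal and ID2 from -0.45 to -0.53.

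The order of the 10 genes by level per length was ID1, ID3, FST, INHBA, SMAD1, ID2, SMAD6, BMP4, BMP2 and ID4. Neighbours in this order kept their rank in all 4 libraries, except ID3 and FST, where ID3 was the higher in 1 library. Mean levels over the 4 libraries were 1379 TPM for ID1, 239 TPM for ID3, 237 TPM for FST and 110 TPM for INHBA. Below these stood SMAD1 at 38.1 TPM and ID2 at 30.2 TPM, and then SMAD6, BMP4 and BMP2 at 8.81, 7.58 and 5.95 TPM. The activin side of the set was thus present at a higher level than its BMP ligands. With the length of the longest transcript in place of joined exons, the shNC means of ID3 and FST were 263 and 216 TPM and that of ID1 was 951 TPM.

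The consensus that the METTL3 complex methylates includes the letters GGACT, so these were counted in 1 coding transcript per gene from GENCODE 29. ID1 holds 0 matches in 1233 bases, as do 8.03% of the 13237 tested coding genes and 22.9% of the 963 among them with transcripts of 1000 to 1500 bases. ID3 holds 3, of which 2 are before the coding region, and ID2 holds 2, with 1 in the coding region and 1 after it. INHBA and FST hold 2 each, and SMAD1 and SMAD6 also 2 each. BMP4 and BMP2 hold 6 and 7, and ID4 holds 1. Per kilobase, BMP4 has 3.13, ID3 has 2.4 and BMP2 has 1.94, against a median of 0.926 over the tested coding genes. ID2 and SMAD1 lie close to that median, at 0.98 and 0.959. FST, SMAD6, ID4, INHBA and ID1 lie below it, at 0.788, 0.522, 0.427, 0.33 and 0. Methylation was not measured here, and a match is no methylated site.

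Around these 10 genes, 91 other genes of the pathway were listed by role, and 61 of them passed the filter. Of the 61, 3 were called higher and 6 lower, or 14.8% against 10.8% of all tested genes, with a median log2 fold change of -0.067. With library size alone, 2 were called higher and 11 lower. In the main fit most of the called pathway genes were lower in sh812, as were INHBA and ID2, but 3 were higher, as was ID1.

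Among the ligands, 1 of the 10 others tested was called, where 10.8% of all tested genes were. INHBB, the activin beta B subunit, was lower together with INHBA. It had 232 and 234 CPM in shNC and 200 and 201 CPM in sh812, a log2 fold change of -0.22 (SE 0.06, edgeR adjusted p = 0.0158). At 260 TPM over the 4 libraries it was the most abundant activin subunit and ran above INHBA per length. BMP8B, the most abundant of the other BMP ligands at 7.12 TPM, had a log2 fold change of -0.00074 with a 95% interval from -0.29 to 0.29 (edgeR adjusted p = 0.999). It has a near-identical copy, BMP8A, so its count is uncertain.

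Of the 7 other secreted antagonists tested, 1 was called, or 14.3% against 10.8% of all tested genes. This was NBL1, a BMP antagonist of the DAN family, which was higher. Its CPM values were 65.4 and 71.3 in shNC and 84.1 and 84.8 in sh812, with a log2 fold change of 0.31 (edgeR adjusted p = 0.00586). MINOS1 and a read-through gene from it share 683 of the NBL1 exon bases on the same strand, so its count is uncertain. TWSG1, a BMP-binding protein and the most abundant of these genes at 154 TPM, had a log2 fold change of -0.11 (edgeR adjusted p = 0.258).

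Of the 11 receptors and coreceptors tested, 1 was called (9.09%, against 10.8% of all tested genes), the type II BMP receptor BMPR2. It had 58.95 and 64.95 CPM in shNC and 47.7 and 53.4 CPM in sh812, a log2 fold change of -0.29 (edgeR adjusted p = 0.0186), and -0.22 with the length trend removed (edgeR adjusted p = 0.0859). The type I receptor ACVR1, highest per length at 34.3 TPM, had a log2 fold change of -0.23 (edgeR adjusted p = 0.0755) and was called lower in 4 of 15 alternatives, with adjusted p from 0.0218 to 0.373. The 5 other SMAD signal transducers had edgeR adjusted p from 0.456 to 0.991. SMAD3, the most abundant at 91.2 TPM, had a log2 fold change of -0.08 (edgeR adjusted p = 0.456).

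Among 14 other intracellular inhibitors, SMAD7 and SKIL were called lower and none higher, or 14.3% against 10.8% of all tested genes. SMAD7, which like SMAD6 blocks the receptors but also acts on activin and TGF-beta signals, had 190 and 128 counts in shNC and 90 and 90 in sh812. This was the largest fall of the called pathway genes, with a log2 fold change of -0.84 (SE 0.22, 95% interval -1.30 to -0.38, edgeR adjusted p = 0.0156). SKIL, a nuclear repressor of SMAD2 and SMAD3, had 80.3 and 73.1 CPM in shNC and 59.6 and 60.6 CPM in sh812, a log2 fold change of -0.35 (edgeR adjusted p = 0.00241). FKBP1A, a receptor-binding inhibitor with 1305 TPM, had a log2 fold change of -0.16 (edgeR adjusted p = 0.0614). It was called lower in 10 of 15 alternatives, among them DESeq2 (adjusted p = 0.0463), limma-voom (adjusted p = 0.0344) and removal of the length trend (-0.23, edgeR adjusted p = 0.00393), with adjusted p over all 15 from 2.07e-05 to 0.421. It is the most abundant gene of this role, and other genes share some of its exon bases.

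Of the 14 other BMP target genes tested, GATA2 was called higher, and HEY1, TBX3 and SMAD7 were called lower. That is 28.6% against 10.8% of all tested genes, with SMAD7 counted here and among the inhibitors. TBX3, a T-box repressor, had 140 and 132 CPM in shNC and 113 and 103 CPM in sh812, a log2 fold change of -0.34 (edgeR adjusted p = 0.00159). HEY1, a helix-loop-helix repressor that also answers to Notch, had a log2 fold change of -0.29 (edgeR adjusted p = 0.00929), from 76.0 ± 2.50 to 61.9 ± 3.61 CPM (SD, n = 2). The transcription factor GATA2 rose from 12.7 ± 0.10 to 16.8 ± 1.11 CPM (SD, n = 2), a log2 fold change of 0.41 (edgeR adjusted p = 0.0261). The other 10 target genes tested did not pass the threshold.

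Of the 3 E proteins that ID proteins bind, 1 was called, where 10.8% of all tested genes were, and the fitted changes differed in direction. TCF3, which encodes E12 and E47, had 115.4 and 115.6 CPM in shNC and 134 and 137 CPM in sh812, a log2 fold change of 0.23 (SE 0.06, edgeR adjusted p = 0.0149). The other two, TCF4 and TCF12, were not called, at -0.26 and -0.16 on the log2 scale (edgeR adjusted p = 0.161 and 0.202). Both were lower in both sh812 libraries than in both shNC libraries, but groups without overlap were found in 53.6% of all tested genes.

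Of the 9 called pathway genes, 5 (INHBB, NBL1, SMAD7, GATA2 and TCF3) lost the call whichever sh812 library was left out, with adjusted p in edgeR from 0.0709 to 0.29. Without sh812 replicate 1 it was also lost for BMPR2 (-0.21, adjusted p = 0.358), HEY1 (-0.24, 0.258) and SKIL (-0.34, 0.054) in edgeR. TBX3 lost it without sh812 replicate 2 (-0.27, edgeR adjusted p = 0.109), SMAD7 also without shNC replicate 1 (-0.67, 0.105), and GATA2 with library size alone (0.36, 0.0525).

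**Figure D4:**
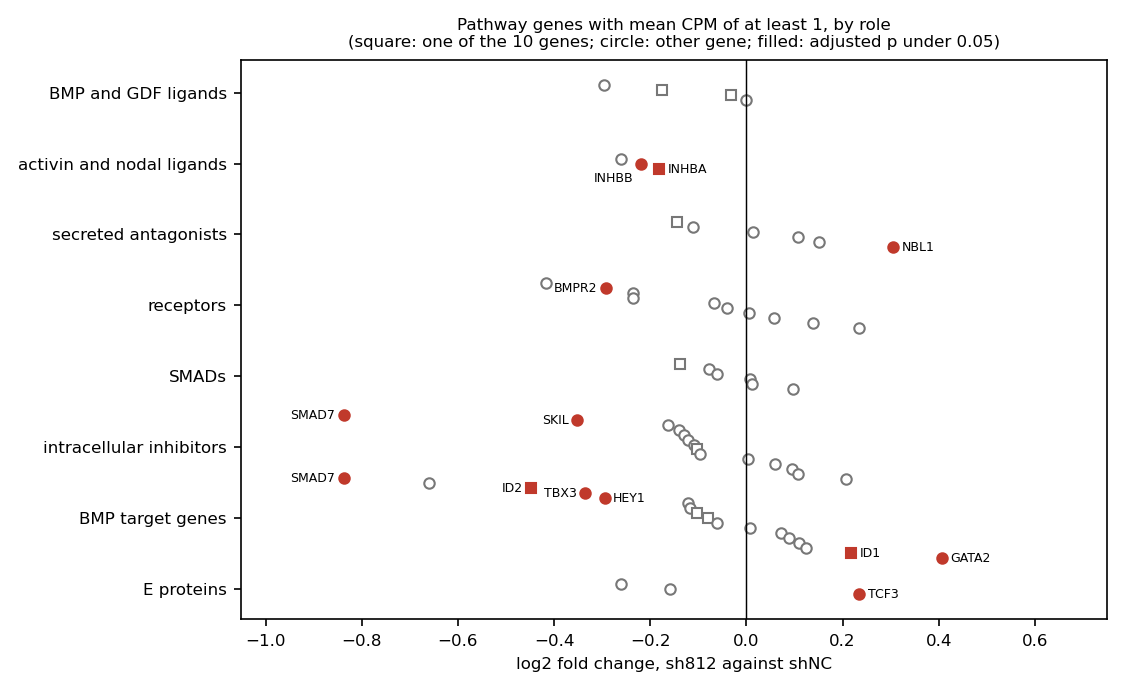
Log2 fold change of sh812 against shNC for listed pathway genes that average 1 CPM or more, in rows by role, where squares are the genes named in the opening, circles are other genes and filled symbols have an adjusted p under 0.05 in edgeR. SMAD7 stands in 2 roles at -0.84, and ID1, NBL1, GATA2 and TCF3 are the filled symbols to the right of 0.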

How the data were processed

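Poly(A) RNA was sequenced as strand-marked paired-end libraries on an Illumina instrument, per the labels' protocols. The authors deposited raw counts per gene for 2 shNC and 2 sh812 libraries. The tools fastp, STAR 2.7.1a, featureCounts and DESeq2 and the build hg38 are named in the submitters' processing notes. The annotation release and strand setting are not given in the sources used here.

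The test was that of edgeR 4.0.16 under R 4.3.3 (low-count filter filterByExpr, TMM, glmQLFit and glmQLFTest, 4 libraries, no covariate), with Benjamini-Hochberg adjustment over 16802 genes and calls at an adjusted p under 0.05. SE and 95% intervals came from the quasi-likelihood statistic. CPM and TPM were computed here from the deposited counts, with GENCODE 29 lengths, present for 16635 tested genes. Replicates differed beyond sampling noise (chi-square per gene 8.43 in shNC, 4.51 in sh812). The code was tested on simulated data.

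The 10 genes and the pathway lists were chosen with earlier results of these data known. Other pathway genes are named if called, or if highest per length in their role. TCF4 and TCF12, and alternative values, were named after their values were seen. Some markers of the androgen-driven list are not reported here.

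Alternatives were RLE, upper quartile and library size scaling, 2 other filters, DESeq2 1.42.0, limma-voom 3.58.1, a replicate block, removal of length trends (lowess, span 0.3, per library, as an offset) and each library left out. With 1 library left out, the lone library of a group is assumed to vary like the others.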

Additional observations from a re-analysis of the deposited data

How the results depend on the processing

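The alternatives were planned, except removal of the length and GC trends together and the block with the length trend removed, which were chosen after seeing the data. Over its 15 alternatives ID2 ran from -0.53 to -0.41 and kept its call unless an sh812 library was left out. ID1 lost its call with the length trend removed (0.088), with the length and GC trends removed (0.078) and with the block and the length trend removed (0.087). INHBA lost its call under the same 3 settings (-0.12, -0.11 and -0.12) and with RLE size factors (-0.18). Under these 3 settings FST gained a call (-0.20, -0.20 and -0.20), as it did with library size alone (-0.19), and ID3 gained one with the block and length trend together (-0.19). For each, the cause was not tested. BMP2, BMP4, SMAD1 and SMAD6 were called in none of the 15 alternatives.

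With 1 library left out, log2 fold changes ran from 0.17 to 0.27 for ID1, from -0.47 to -0.41 for ID2 and from -0.21 to -0.14 for INHBA. From 0 to 3 of the 10 genes, from 2 to 14 of the other pathway genes and from 587 to 3252 of all genes were called, fewest without sh812 replicate 1 and most without shNC replicate 2. None of the 10 was called without sh812 replicate 1 or 2.

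The labels number replicates 1 and 2 in both arms without naming a shared day. Across genes, same-numbered libraries deviated from their group means with r = 0.0164, and whether they shared a day or batch is not known. Fitted with the replicate block, 2001 genes and 3 of the 10 were called, with log2 fold changes of 0.22 for ID1, -0.45 for ID2 and -0.18 for INHBA. With 178 to 248 counts and 2 libraries per group, the intervals of BMP2 and BMP4 are wide, and 0 to 6 counts allow no statement on a change of ID4.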
